A study of Homo sapiens with 9 samples.

Results

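The 9 genes described here encode parts of the tight junction, the seal between neighbouring epithelial cells: the scaffolds TJP1, TJP3 and CGN, the strand proteins CLDN1, CLDN4, CLDN7, CLDN12 and OCLN, and the adhesion receptor F11R. They are 9 of the 60240 genes in the count table and were taken by their symbols. The members were chosen by gene family with their differences between the groups already known from an earlier analysis of the same libraries. Their levels and fold changes are therefore given as a description with no test of their own.

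All 9 libraries came from MDA-MB-231, a long-established line of human breast cancer cells of the basal type, transduced with a lentiviral vector that doxycycline switches on, and all received 100 ng/ml doxycycline for 3 days. ERβ1 + CLI cells carried GFP, luciferase and isoform 1 of oestrogen receptor beta and received the ligand CLI for 24 h, and ERβ1 cells carried the same vector without CLI. Control cells carried GFP and luciferase alone. Each group had 3 libraries. No control cells received CLI, so an action of CLI that needs no receptor cannot be told apart from one that does, and neither can the receptor from other differences between the transduced populations. The labels do not say whether the replicates were separate cultures, and p-values measure only the spread between these libraries.

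In a tight junction, claudins form strands in the membrane that decide which ions and molecules pass between cells. Occludin (OCLN) and its relatives sit in or beside those strands, and JAM-A (F11R) is an immunoglobulin-type adhesion receptor that helps junctions form. The zonula occludens scaffolds, TJP1 and TJP3 among them, hold most claudins by their tails through PDZ domains and tie them to actin, and cingulin (CGN) links the scaffolds to actomyosin and to regulators of the small GTPase RhoA. MDA-MB-231 is commonly classed as a claudin-low line, which grows without continuous epithelial junctions.

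The libraries held 39902456 to 55387538 estimated counts, and mitochondrial transcripts took 6.93 to 7.92% of them. ESR2, the gene of the receptor, averaged 84.2 ± 3.09 CPM (counts per 1e+06 on scaled library sizes) in ERβ1 + CLI cells, 117 ± 1.51 CPM in ERβ1 cells and 0.137 ± 0.00454 CPM in control cells (SD, n = 3 each), and every library matched its label as receptor or control cells. Basal-type markers (VIM, CD44, AXL and EGFR) summed to 5490 to 5870 CPM in ERβ1 + CLI cells, 5660 to 5840 CPM in ERβ1 cells and 6740 to 7050 CPM in control cells, with 3 and 2 of the 4 lower than control at an edgeR adjusted p under 0.05. The 7 luminal markers summed to 256 to 368, 220 to 327 and 327 to 360 CPM in the same order of groups, with 2 of them under 1 CPM in all libraries and 3 and 2 of the 4 tested lower than control. KRT19 gave most of each sum and was not called. AGR2 averaged 0.887 CPM in control cells and was at 0 in every receptor library, and SPDEF averaged 0.473, 0.433 and 3.05 CPM. ESR1, not tested, had 5.98 CPM in 1 ERβ1 + CLI library and at most 0.765 CPM in any other. Some markers of other cell types were called higher beside the receptor. Those of fibroblasts summed to 26.7 to 38.0 CPM in ERβ1 + CLI, 25.4 to 35.1 in ERβ1 and 20.1 to 28.3 in control cells. These ranges overlapped, and 2 of 3 tested were higher. PDGFRB gave most of that sum and was not called. Markers of endothelium summed to 1.64 to 1.96, 1.09 to 1.66 and 0.676 to 0.863 CPM in that order (1 of 2 higher), and those of blood cells to 0.533 to 1.02, 0.372 to 1.72 and 0.07 to 0.14 CPM (1 of 1 higher). Of the called genes, LUM (fibroblast) and LYZ (blood) reached at most 0.632 and 0.677 CPM. Over all genes tested, 13.3% were called higher and 13.1% lower than control in ERβ1 + CLI cells, and 10.7% each way in ERβ1 cells. The part of these markers in the results below was not tested. In bulk RNA, fewer cells that express a gene and less of its RNA per cell cannot be told apart.

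The members lie on 7 chromosomes of the GRCh38 build in GENCODE release 29, apart from each other except for CLDN4 and CLDN12, both on chromosome 7, and CGN and F11R, both on chromosome 1. Promoter windows from RefSeq on the same build (GRCh38.p14), each of 250 bases before to 50 after an annotated start, were matched to 8 of the 9 members, 14 windows in all, and none to F11R. They were searched on both strands for CAGGTG, the E-box that the epithelial repressors of the SNAI and ZEB families bind, since those repressors are known for lowering junction genes. CAGGTG stood in 5 of the 14 windows, from 4 members (TJP1, TJP3, OCLN and CLDN7), against 20.6% of all 35116 promoter windows. The 4 windows below were picked with the results known, because their genes moved apart from each other: TJP3 and OCLN lower, CLDN1 higher and CLDN7 not called in any comparison. Capitals mark CAGGTG or its reverse complement.
TJP3, second start, chr19:3721487-3721786, plus strand: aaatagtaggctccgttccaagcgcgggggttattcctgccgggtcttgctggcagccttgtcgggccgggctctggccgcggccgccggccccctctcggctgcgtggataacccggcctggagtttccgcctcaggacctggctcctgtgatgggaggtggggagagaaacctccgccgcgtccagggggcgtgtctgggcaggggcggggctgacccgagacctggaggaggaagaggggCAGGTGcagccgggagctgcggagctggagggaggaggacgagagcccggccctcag
OCLN, second start, chr5:69492540-69492839, plus strand: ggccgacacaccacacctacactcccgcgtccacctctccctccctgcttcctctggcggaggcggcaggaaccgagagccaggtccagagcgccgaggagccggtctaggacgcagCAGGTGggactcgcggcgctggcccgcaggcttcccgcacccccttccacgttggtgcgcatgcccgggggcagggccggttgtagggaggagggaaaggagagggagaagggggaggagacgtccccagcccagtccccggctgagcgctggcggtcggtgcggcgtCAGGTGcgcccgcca
CLDN7, second start, chr17:7262429-7262728, minus strand: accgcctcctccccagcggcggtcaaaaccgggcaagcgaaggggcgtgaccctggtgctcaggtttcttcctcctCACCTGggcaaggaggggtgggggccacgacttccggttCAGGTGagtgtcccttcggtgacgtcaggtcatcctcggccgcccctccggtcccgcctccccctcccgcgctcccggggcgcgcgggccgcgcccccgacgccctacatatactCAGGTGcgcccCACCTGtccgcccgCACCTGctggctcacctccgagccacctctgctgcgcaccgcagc
CLDN1, chr3:190322397-190322696, minus strand: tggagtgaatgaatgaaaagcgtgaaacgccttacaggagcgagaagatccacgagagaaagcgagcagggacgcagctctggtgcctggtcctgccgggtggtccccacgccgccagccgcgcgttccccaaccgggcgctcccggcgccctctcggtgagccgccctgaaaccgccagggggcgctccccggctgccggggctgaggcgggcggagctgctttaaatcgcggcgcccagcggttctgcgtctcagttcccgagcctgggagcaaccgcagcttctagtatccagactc

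With the start base counted as 1, the match in the TJP3 window began at -7, and those in the OCLN window at -133 and 36. The CLDN7 window held 5 matches, the most among the members, beginning at -174, -135, -20, -9 and 6. The CLDN1 window held none, and neither did those of CLDN4, CLDN12 and CGN. Among windows not shown, that of the first start of TJP1, a gene that was higher, held a match at -88. The window of the first OCLN start held a match at -33, and those of the first TJP3 and CLDN7 starts held none. The AP-1 motif TGANTCA stood in 1 member window, that of CLDN4 with 2 matches, against 7.71% of all windows. The hormone receptor half-site GGTCA stood in 7 windows of 6 members, against 37.4% of all windows, and as an inverted repeat with 3 bases between in none, against 0.057%. The members' windows held between 35.7 and 75.3% G and C, against a median of 58.7% over all windows. A match is a description of these letters and shows no binding, and counts per gene do not say which start was used.

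All 9 members had enough counts to enter the edgeR fit over 17058 genes. In ERβ1 against control cells, 4 of the 9 were called at an adjusted p under 0.05, 2 higher (TJP1 and CLDN1) and 2 lower (TJP3 and OCLN), where 21.4% of all genes were called, 10.7% higher and 10.7% lower. In ERβ1 + CLI against control cells, 7 were called, 4 higher (TJP1, CLDN1, F11R and CGN) and 3 lower (TJP3, OCLN and CLDN4), where 26.5% of all genes were called, 13.3% higher and 13.1% lower. In ERβ1 + CLI against ERβ1 cells, 1 was called, TJP1 higher, where 1.47% of all genes were called, 1.04% higher and 0.428% lower. Because the same contrasts chose the members, nothing is read from these counts. The median log2 fold change of the 9 was 0.08 in ERβ1 over control and close to 0 in ERβ1 + CLI over control (-0.001), against -0.001 and 0 over all genes tested. The comparisons share libraries, so their values are set side by side and not counted as separate evidence.

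**Figure D1:**
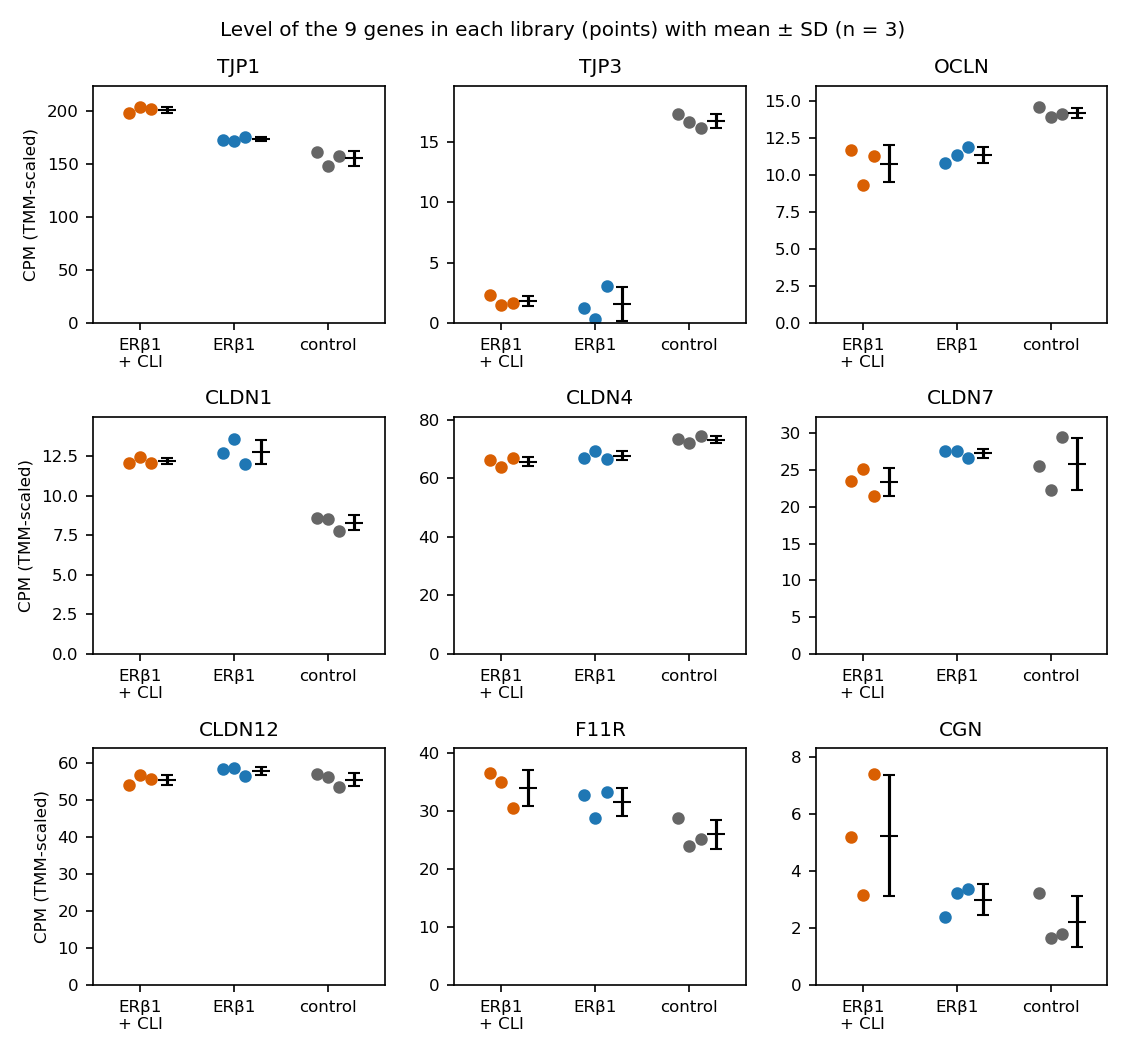
Level of each member in every library (points, CPM on TMM-scaled library sizes) with the mean and SD of 3 libraries beside them, for ERβ1 + CLI (orange), ERβ1 (blue) and control cells (grey). TJP3 and CLDN1 split the 6 receptor libraries from the 3 control libraries, in opposite directions. TJP1, OCLN, CLDN4 and, by little, F11R split them too, while CLDN12 overlaps across all groups.

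TJP3 showed the widest gap of the 9. It had 2.32, 1.52 and 1.65 CPM in ERβ1 + CLI cells and 1.26, 0.303 and 3.10 CPM in ERβ1 cells, against 17.3, 16.7 and 16.2 CPM in control cells. Every receptor library lay far below every control library, and the ERβ1 libraries spanned the ERβ1 + CLI ones. In estimated counts the ERβ1 libraries held 54.7, 16.8 and 125.4, against 787.5, 715.8 and 694.7 in control libraries. TJP3 encodes the zonula occludens scaffold found mainly in epithelia (ENSG00000105289, chromosome 19, 3708109 to 3750813, plus strand). Its log2 fold change was -3.47 ± 0.58 (SE) in ERβ1 over control and -3.20 ± 0.57 in ERβ1 + CLI over control, that is 0.0902 and 0.109 of the control level. In ERβ1 + CLI over ERβ1 it was 0.27 ± 0.59. ERβ1 library 3 held the highest of the low values. Without it the log2 fold change was -4.46 in ERβ1 over control and 1.27 in ERβ1 + CLI over ERβ1. Without ERβ1 library 2, the lowest, these were -2.95 and -0.25, so the sign of the second turned on a single ERβ1 library.

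TJP1 went the other way and in steps. It had 198, 204 and 202 CPM in ERβ1 + CLI cells, 173, 172 and 176 CPM in ERβ1 cells, and 162, 148 and 158 CPM in control cells. No library of one group overlapped another group. TJP1 encodes the best known of the zonula occludens scaffolds, which is also present at junctions of cells other than epithelia (ENSG00000104067, chromosome 15, 29699367 to 29968865, minus strand). Its log2 fold change was 0.37 ± 0.04 (SE) in ERβ1 + CLI over control, 0.16 ± 0.04 in ERβ1 over control and 0.21 ± 0.04 in ERβ1 + CLI over ERβ1, or 1.29-fold, 1.12-fold and 1.16-fold. With the replicate number as a block, the ERβ1 + CLI over ERβ1 value was again 0.21 but was no longer called, and no member was called in that comparison. It was also not called without control library 3 or without any one of the 6 receptor libraries, at log2 fold changes of 0.20 to 0.22.

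CGN, which encodes cingulin (ENSG00000143375, chromosome 1, 151510510 to 151538692, plus strand), was the member with the fewest reads in control cells. It had 5.17, 3.15 and 7.38 CPM in ERβ1 + CLI cells, 2.38, 3.21 and 3.38 CPM in ERβ1 cells, and 3.23, 1.63 and 1.79 CPM in control cells. The ERβ1 + CLI libraries were scattered, and their lowest was below the highest control library. The log2 fold change was 1.23 ± 0.35 (SE) in ERβ1 + CLI over control, 0.43 ± 0.35 in ERβ1 over control and 0.81 ± 0.34 in ERβ1 + CLI over ERβ1. Without ERβ1 + CLI library 3 the first of these was 0.90 and not called, and it was also not called without ERβ1 + CLI library 1 (1.24), control library 2 (1.06) or control library 3 (1.10), or in the 6 libraries compared alone.

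CGNL1, the paralogue of cingulin, averaged 1.83 ± 0.247 CPM in ERβ1 + CLI, 2.06 ± 0.634 in ERβ1 and 1.59 ± 0.2 in control cells (SD, n = 3 each). Its log2 fold changes over control were 0.21 in ERβ1 + CLI and 0.38 in ERβ1 cells (edgeR adjusted p = 0.57 and 0.298), so it did not pass the test, which does not show that the groups were equal.

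CLDN1 was the claudin with the largest difference among the 4 members of that family. It had 12.1, 12.5 and 12.1 CPM in ERβ1 + CLI cells and 12.7, 13.6 and 12.02 CPM in ERβ1 cells, against 8.60, 8.54 and 7.78 CPM in control cells. All receptor libraries were above all control libraries, and the receptor groups overlapped each other. CLDN1 encodes a barrier-forming claudin (ENSG00000163347, chromosome 3, 190305701 to 190322475, minus strand). Its log2 fold change was 0.55 ± 0.07 (SE) in ERβ1 + CLI over control, 0.62 ± 0.07 in ERβ1 over control and -0.07 ± 0.07 in ERβ1 + CLI over ERβ1. Its promoter window held no E-box match, and neither did those of CLDN4, CLDN12 and CGN.

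CLDN4, a claudin typical of simple epithelia, was slightly lower in receptor cells. It had 66.3, 63.9 and 66.9 CPM in ERβ1 + CLI cells and 67.1, 69.4 and 66.8 CPM in ERβ1 cells, against 73.3, 72.0 and 74.4 CPM in control cells. No receptor library reached a control library, yet the step was small. The log2 fold change was -0.16 ± 0.04 (SE) in ERβ1 + CLI over control, or 0.897 of the control level, and -0.11 ± 0.04 in ERβ1 over control, which edgeR did not call and DESeq2 did. The gene (ENSG00000189143) lies on chromosome 7, 73799542 to 73832693, plus strand.

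CLDN7, another epithelial claudin (ENSG00000181885, chromosome 17, 7259903 to 7263983, minus strand), was called in no comparison. It had 23.5, 25.2 and 21.5 CPM in ERβ1 + CLI cells, 27.6, 27.6 and 26.6 CPM in ERβ1 cells, and 25.6, 22.4 and 29.4 CPM in control cells. The control libraries spanned nearly the whole range, and the ERβ1 + CLI libraries were all below the ERβ1 ones. The log2 fold change was -0.14 ± 0.10 (SE) in ERβ1 + CLI over control, 0.08 ± 0.10 in ERβ1 over control and -0.22 ± 0.10 in ERβ1 + CLI over ERβ1.

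CLDN12, a claudin known for lacking the usual PDZ-binding tail (ENSG00000157224, chromosome 7, 90383721 to 90513402, plus strand), was the steadiest of the 9. It had 54.1, 56.8 and 55.8 CPM in ERβ1 + CLI cells, 58.6, 58.7 and 56.5 CPM in ERβ1 cells, and 57.0, 56.2 and 53.6 CPM in control cells. The 3 groups overlapped. The log2 fold change was -0.001 ± 0.04 (SE) in ERβ1 + CLI over control and 0.06 ± 0.04 in ERβ1 over control, and no alternative called it. Its span overlaps GTPBP10 and CDK14 on the same strand, so reads may have been shared between these genes.

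Levels per kilobase were divided by the union of all annotated exons of a gene, which can be longer than the transcript expressed. Levels and shares of different genes therefore depend on the annotation. For CLDN4 the union is 4702 bases, yet its only promoter window (73830746 to 73831045) lies near the gene's end at 73832693. On this scale the 24 claudins summed to 45.4 ± 0.703 CPM per kb in ERβ1 + CLI, 47.8 ± 0.743 in ERβ1 and 46.0 ± 1.99 in control cells (SD, n = 3 each). CLDN4 gave 30.8 ± 1.15%, 30.1 ± 0.189% and 33.9 ± 0.907% of the sum in that order of groups. CLDN1 gave 7.33 ± 0.1%, 7.29 ± 0.335% and 4.94 ± 0.453%. CLDN7 gave 20.6 ± 1.32%, 22.9 ± 0.375% and 22.4 ± 2.12%, and CLDN12 18.2 ± 0.515%, 18.0 ± 0.246% and 18.0 ± 1.23%. CLDN3, the neighbour and close relative of CLDN4, averaged 2.05 ± 0.153 CPM in ERβ1 + CLI, 2.24 ± 0.159 in ERβ1 and 2.42 ± 0.282 in control cells, with log2 fold changes over control of -0.24 and -0.11 (edgeR adjusted p = 0.245 and 0.628).

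**Figure D2:**
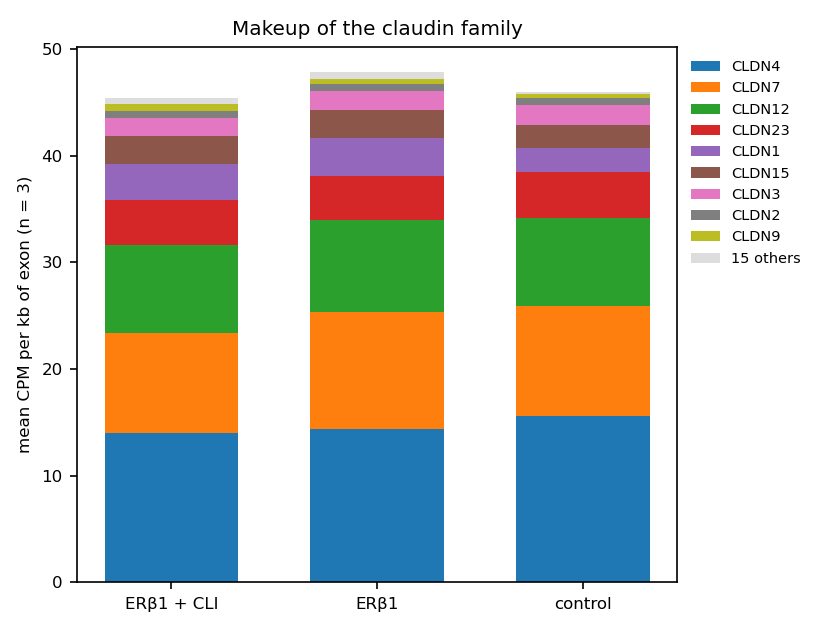
Stacked mean level (CPM per kb of exon, n = 3 libraries) of the 24 claudin genes in ERβ1 + CLI, ERβ1 and control cells. The bars are of similar height, between 45.4 and 47.8 CPM per kb, and are made mostly of CLDN4, CLDN7 and CLDN12 in every group, with CLDN1 a wider band in both receptor groups. Band heights depend on the exon union used as the length of each gene.

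OCLN, which encodes the tetraspan protein occludin (ENSG00000197822, chromosome 5, 69492292 to 69558104, plus strand), was lower in receptor cells. It had 11.7, 9.34 and 11.3 CPM in ERβ1 + CLI cells and 10.8, 11.4 and 11.9 CPM in ERβ1 cells, against 14.6, 13.9 and 14.1 CPM in control cells. All receptor libraries lay below all control libraries. The log2 fold change was -0.40 ± 0.09 (SE) in ERβ1 + CLI over control, or 0.758 of the control level, -0.33 ± 0.09 in ERβ1 over control and -0.08 ± 0.09 in ERβ1 + CLI over ERβ1. The call of ERβ1 over control was lost without a filter on low counts (-0.32) and without any one of the 6 control and ERβ1 libraries (-0.35 to -0.29), while ERβ1 + CLI over control kept its call throughout. The pseudogene OCLNP1 held at most 10 counts in a library, and how reads were divided between the copies is not known.

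F11R, the gene of JAM-A (ENSG00000158769, chromosome 1, 160995211 to 161021348, minus strand), was higher with the receptor and CLI. It had 36.6, 34.96 and 30.5 CPM in ERβ1 + CLI cells, 32.8, 28.9 and 33.2 CPM in ERβ1 cells, and 28.8, 24.0 and 25.2 CPM in control cells. The receptor libraries were all above the control libraries, by little for the lowest ERβ1 library. The log2 fold change was 0.39 ± 0.09 (SE) in ERβ1 + CLI over control, 0.28 ± 0.09 in ERβ1 over control, which was not called, and 0.11 ± 0.09 in ERβ1 + CLI over ERβ1. The call of ERβ1 + CLI over control was lost without control library 2 (0.34), control library 3 (0.37) or ERβ1 + CLI library 1 (0.34). ERβ1 over control was called with DESeq2, with the filter of at least 1 CPM in 3 libraries, with the replicate block and without control library 1. F11R shares 23392 bases of its span with AL591806.3, a gene on the same strand that held 43.15 to 212.21 estimated counts in a library.

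**Figure D3:**
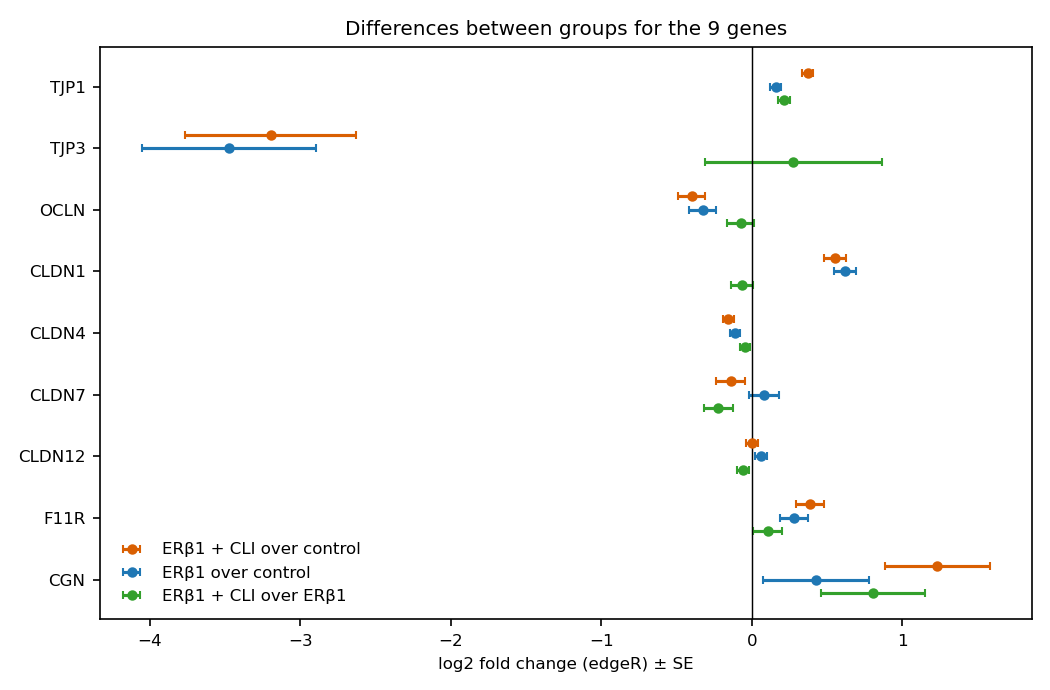
Log2 fold change of each member from the edgeR fit, with its SE as bars, for ERβ1 + CLI over control (orange), ERβ1 over control (blue) and ERβ1 + CLI over ERβ1 (green). Only TJP3 lies beyond -3, with values of -3.20 and -3.47, and the green points lie within 0.27 of 0 for every member but CGN.

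The order of the 9 levels per kilobase of exon changed around TJP3. In ERβ1 + CLI cells the order was TJP1 (17.9 CPM per kb), CLDN4 (14.0), CLDN7 (9.38), CLDN12 (8.25), F11R (6.71), CLDN1 (3.33), OCLN (1.59), CGN (0.791) and TJP3 (0.434). ERβ1 cells had the same order, from TJP1 at 15.4 to CGN at 0.452 and TJP3 at 0.369 CPM per kb. In control cells CLDN4 stood first (15.6), before TJP1 (13.83), and TJP3 stood sixth (3.97), above CLDN1 (2.27), OCLN (2.10) and CGN (0.336). All places depend on the exon union used as the length of a gene. With a shorter length CLDN4 would stand higher, so the change of first place between CLDN4 and TJP1 rests on that choice. CGN and TJP3 overlapped between libraries in both receptor groups, and CLDN1 and OCLN overlapped in control cells; the other neighbours in these orders were apart. The 9 members together summed to 62.3 ± 0.655 CPM per kb in ERβ1 + CLI, 61.6 ± 0.12 in ERβ1 and 61.8 ± 2.37 in control cells (SD, n = 3 each).

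Across the 9 libraries the members fell into opposing patterns, which is a description over points that share groups. TJP3 ran against CLDN1 (Pearson r = -0.949 of log2 CPM) and with OCLN (0.808). OCLN ran with CLDN4 (0.925), and TJP1 with F11R (0.827) and CGN (0.814). CLDN7 and CLDN12 followed none of them closely, with r between -0.526 and 0.501. Among the 13707 genes that averaged 1 CPM or more, those whose log2 CPM was most like TJP3 were TPRG1L (0.982) and PLPP5 (0.973), and those most like CLDN1 were NOG (0.992) and TRIM59 (0.99). Those most like TJP1 were LRRC15 (0.988) and SH3BP5 (0.987). OCLN was closest to CX3CL1 (0.97) and DYNC1H1 (0.966), CLDN4 to TCEA3 (0.98) and PITHD1 (0.979), F11R to ST8SIA4 (0.966) and LINC01303 (0.965), and CGN to EGR2 (0.979). For CLDN7 they were PLAAT3 (0.932) and CNIH4 (0.93), and for CLDN12 AL031985.3 (0.933) and MRPL17 (0.912).

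The fall of TJP3 was not shared by the genes around it. The 20 nearest tested genes, 10 on each side within a stretch of 0.69 Mb, had log2 fold changes of -0.98 to 1.16 in ERβ1 over control. Their median was 0.17, and 6 of them were called by edgeR, each higher, beside 10.7% of all genes called higher and 10.7% lower. The nearest on each side, PIP5K1C and APBA3, stood at 0.42 and 0.08. The 20 genes nearest CLDN1, TJP1 and CLDN12 spread over far longer stretches, of 7.57, 5.31 and 4.9 Mb. CLDN1 lay among genes with a median of 0.19 (6 higher and 1 lower of 20), from -1.83 to 6.84. TJP1 at 0.16 was close to the median of its neighbours (0.18), which ran from -5.88 to 1.22 with 2 called higher and 1 lower. CLDN12 at 0.06 was below the median of its own neighbours (0.11). OCLN at -0.33 was below a neighbour median of -0.12 (1 higher and 3 lower), F11R at 0.28 and CGN at 0.43 were above medians of -0.02 and 0.03, and CLDN4 at -0.11 was below a median of 0.17.

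**Figure D4:**
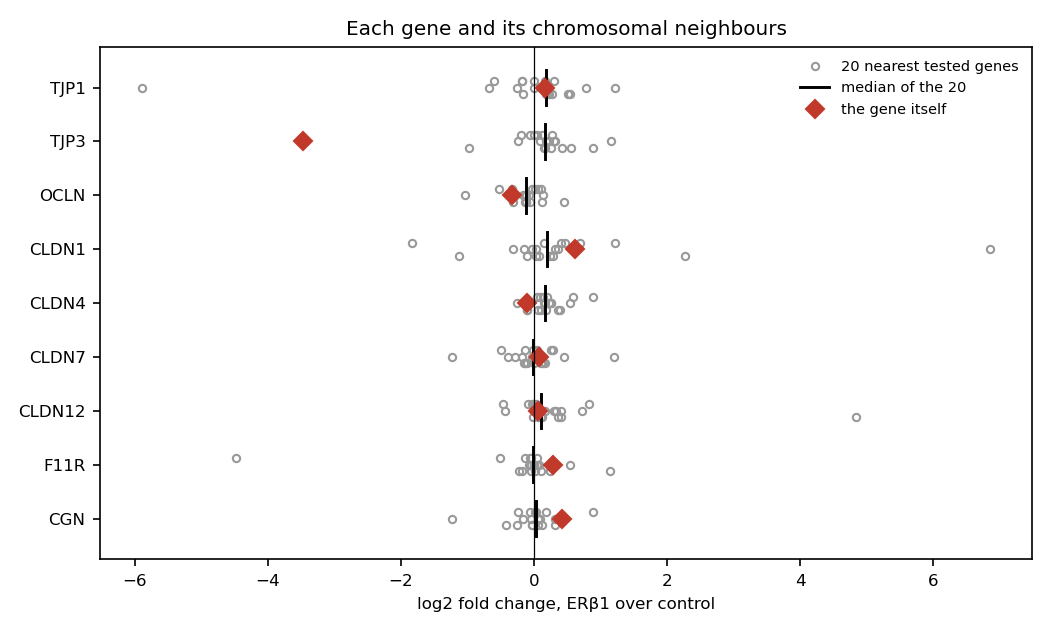
Log2 fold change of ERβ1 over control cells for each member (red diamond) and for its 20 nearest tested genes on the chromosome (open circles), with their median as a bar. The TJP3 diamond at -3.47 lies outside the -0.98 to 1.16 of its neighbours.

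Of 48 further tight junction genes in 3 lists (claudins, other membrane proteins, scaffolds and plaque proteins) 28 were tested. Of these 28, 5 passed the edgeR test in ERβ1 + CLI against control, 2 higher and 3 lower, and likewise 5 in ERβ1 against control, 2 higher and 3 lower, beside 26.5% and 21.4% of all genes tested. Their medians were -0.003 and -0.03 on the log2 scale, against 0 and -0.001 over all genes. In ERβ1 + CLI against ERβ1, edgeR called 0 of the 28, with 5 at an unadjusted p under 0.05, DESeq2 called 1 (ESAM) and limma called 0. Higher were CLDN11, a claudin of myelin and testis, and MARVELD2, which encodes tricellulin of the tricellular contacts. CLDN11 had 1.37, 1.505 and 1.22 CPM in ERβ1 + CLI and 0.939, 1.14 and 1.27 CPM in ERβ1 cells, against 0.198, 0.210 and 0.256 CPM in control cells, with log2 fold changes of 2.61 ± 0.22 and 2.32 ± 0.22 (SE; edgeR adjusted p = 5.09e-05 and 0.000155). MARVELD2 averaged 5.59 ± 0.5, 5.42 ± 0.0348 and 3.96 ± 0.303 CPM in ERβ1 + CLI, ERβ1 and control cells, with log2 fold changes over control of 0.50 and 0.45 (edgeR adjusted p = 0.00668 and 0.0132).

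Lower were the scaffolds AFDN (afadin), ARHGEF2 (the RhoA exchange factor that cingulin binds) and AMOTL2 (an angiomotin). Their log2 fold changes in ERβ1 + CLI over control were -0.17, -0.41 and -0.18 (edgeR adjusted p = 0.0178, 0.00139 and 0.0145), and in ERβ1 over control -0.32, -0.27 and -0.20 (edgeR adjusted p = 0.00108, 0.0141 and 0.0131). They were lower in both receptor groups, as TJP3 was, with fold changes nearer to 0. MAGI2 held 32.6 CPM in 1 ERβ1 + CLI library against at most 2.80 CPM in the 8 others, and was not called. JAM2, a relative of F11R, had at most 0.0933 CPM and was not tested, and JAM3 was listed at 0 in every library.

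Polarity, adherens junction and epithelial regulator genes were read beside the members. Of 10 genes of the cell polarity complexes, 5 were lower in ERβ1 + CLI than in control cells and 4 lower in ERβ1 than in control cells, beside 13.1% and 10.7% of all genes called lower in these comparisons. DESeq2 and limma each called 4 of the 10 in both comparisons. The median log2 fold changes of the 10 were -0.28 and -0.23, against 0 and -0.001 over all genes. In ERβ1 + CLI against control, DLG1 was at -0.36, SCRIB at -0.27, PARD6B at -0.36 and PRKCI at -0.32 (edgeR adjusted p = 0.000827, 0.00902, 0.0103 and 0.0442). Of 14 tested adherens junction and desmosome genes, 6 were higher and 2 lower in ERβ1 + CLI than in control cells, and 5 higher and 3 lower in ERβ1, with medians of 0.05 and -0.003. Over all genes, 13.3% were called higher and 13.1% lower with CLI, and 10.7% each way without it. JUP (plakoglobin) averaged 77.9 ± 0.772, 69.4 ± 1.63 and 46.7 ± 1.96 CPM in ERβ1 + CLI, ERβ1 and control cells, with log2 fold changes over control of 0.74 and 0.57 (edgeR adjusted p = 4.05e-06 and 2.96e-05). CDH1 (E-cadherin) averaged only 2.54 ± 0.0789, 1.33 ± 0.541 and 0.12 ± 0.0758 CPM, on 351, 179 and 16 counts (edgeR adjusted p = 0.000132 and 0.000772 against control). These 2 were among the higher genes. Among the lower ones, CTNNA1 averaged 502 ± 3.925, 534 ± 12.3 and 574 ± 6.41 CPM. Its log2 fold changes over control were -0.19 and -0.10 (edgeR adjusted p = 0.000742 and 0.0222).

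Of 6 listed epithelial repressors, the SNAI and ZEB genes, whose E-box is marked in the windows above, were the 4 tested. In both receptor groups 2 were called higher and 1 lower than control, with median log2 fold changes of 0.06 with CLI and 0.18 without. Over all genes tested, 13.3% were called higher and 13.1% lower with CLI, and 10.7% each way without it. SNAI1 had 11.7, 11.7 and 11.1 CPM in ERβ1 + CLI cells and 4.67, 4.73 and 5.91 CPM in ERβ1 cells, against 1.01, 0.770 and 0.745 CPM in control cells. The 3 groups did not overlap, and the log2 fold change was 3.77 ± 0.15, 2.59 ± 0.15 (SE) over control and 1.18 ± 0.13 in ERβ1 + CLI over ERβ1 (edgeR adjusted p = 6.58e-07, 8.75e-06 and 0.00297). SNAI2 was higher by 0.17 and 0.35 and ZEB1 lower by -0.28 and -0.32 on the log2 scale (edgeR adjusted p = 0.0214, 0.000668, 0.0259 and 0.0157). Of 5 tested epithelial transcription and splicing factors, 2 were higher and 1 lower in ERβ1 + CLI than in control cells, and 1 was higher in ERβ1 cells. The shares over all genes are those given for the repressors. ELF3 was higher in both receptor groups (log2 fold changes of 3.01 and 2.54, edgeR adjusted p = 0.00204 and 0.00657), and ESRP1 was higher in ERβ1 + CLI (1.99, edgeR adjusted p = 0.00157). Both were low: ELF3 averaged 3.07, 2.21 and 0.375 CPM in ERβ1 + CLI, ERβ1 and control cells, and ESRP1 1.31, 0.602 and 0.326 CPM. The listed factors that were not tested had at most 0.226 CPM in a library. EHF was lower in ERβ1 + CLI, at 50.5 ± 2.82 CPM against 57.5 ± 1.72 CPM in control cells (mean ± SD of 3 libraries), a log2 fold change of -0.19 with an edgeR adjusted p = 0.0189. Of members with the E-box in a window, TJP3 and OCLN were lower, TJP1 higher and CLDN7 not called, and whether these factors act on the members was not tested.

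**Figure D5:**
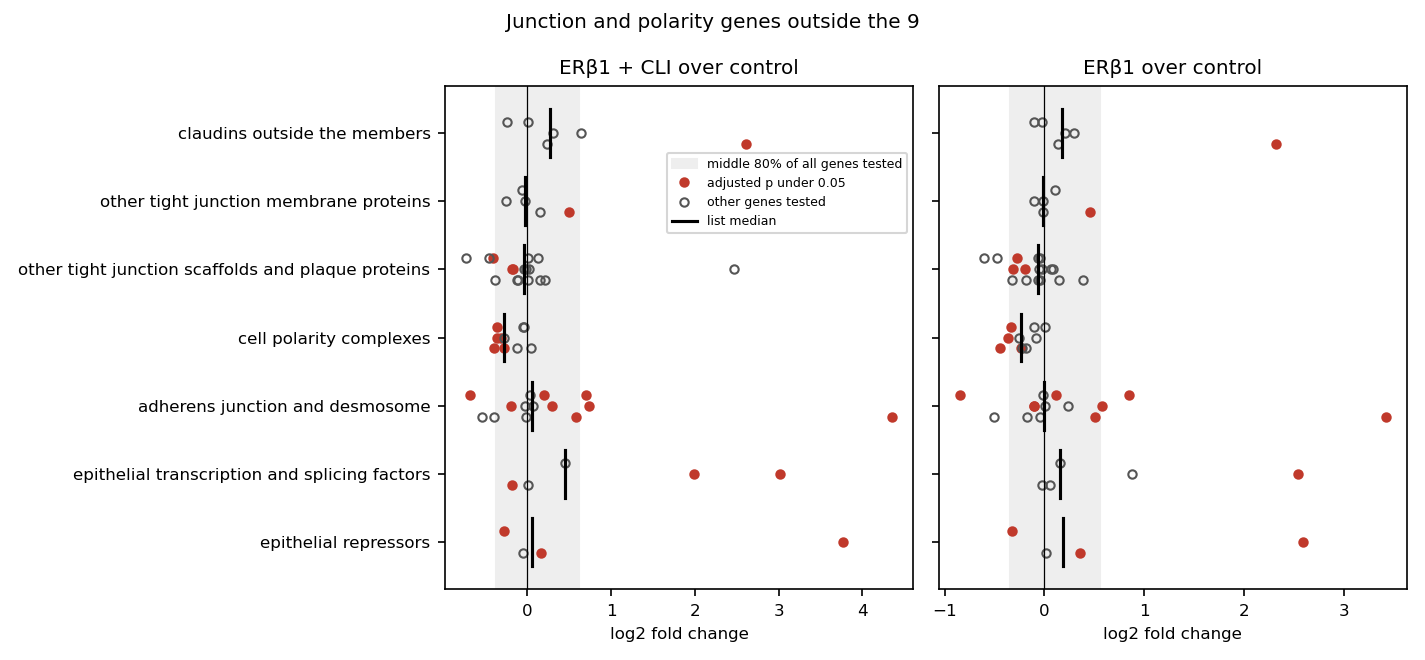
Log2 fold change of every tested gene of 7 lists outside the members, in ERβ1 + CLI over control (left) and ERβ1 over control (right), with genes at an edgeR adjusted p under 0.05 filled red, the list median as a bar and the middle 80% of all genes tested in grey. Most points lie in or near the grey band, and the points beyond 2 are CDH1, SNAI1, ELF3 and CLDN11 in both panels and, on the left, MAGI2 at 2.47, which was not called.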

How the data were processed

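Estimated counts per gene, deposited by the authors for 60240 Ensembl genes, and log2 CPM, deposited by the authors for 18934 genes, were used. The submitters' processing notes name Salmon 1.2.1, Trimmomatic 0.38, edgeR 3.30.3 in R 4.0.2, FastQC and bcl2fastq 2.20, and the GRCh38 build. The sources used here give neither their settings nor the CLI dose. Per the labels' protocols, stranded mRNA libraries were read from one end. Some labels number the cell line upward from library to library; MDA-MB-231 was used throughout, as in the growth protocol.

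Counts were rounded and fitted with edgeR 4.0.16 (R 4.3.3): filterByExpr by group (17058 genes kept), TMM scaling, and 1 quasi-likelihood fit of all 9 libraries with 2-sided tests, adjusted by Benjamini and Hochberg over all genes of a comparison, with calls at an adjusted p under 0.05. SEs were obtained by dividing a log2 fold change by the square root of F. CPM per kb divides CPM by the exon union of GENCODE release 29, which held 58064 of the gene IDs. The fit was checked on simulated counts. The members and lists were chosen with earlier results of these data known. The text names the 9 members, ESR2, CGNL1, CLDN3, JAM2, JAM3, MARVELD2, up to 4 called genes per list with the smallest adjusted p, and up to 2 genes most like each member. MAGI2, ESAM, the nearest neighbours of TJP3 and single markers of luminal, fibroblast and blood cells were named after their values were seen. Protein sequences were not analysed here, and some genes are left out of the text. DESeq2 1.42.0, limma 3.58.1 and the other alternatives are under the processing heading. Figures used Python 3.11.15, pandas 2.3.3 and matplotlib 3.10.9.

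Replicate numbers come from the titles. Deviations from group means of same-numbered ERβ1 + CLI and ERβ1 libraries correlated at 0.099, 0.371 and 0.099 over 13708 genes averaging 1 CPM or more. Over 11196 genes averaging 5 CPM or more they correlated at 0.178, 0.499 and 0.251. Libraries numbered 1 in one of these groups and 3 in the other correlated at 0.142 and 0.137, and at 0.21 and 0.208 over the second set. The other different-numbered pairs of these groups were negative. Only the libraries numbered 2 stood well apart, so these values do not show that the numbers pair the libraries. Values with the block are given where they change a call. Replicates were not identical.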

Additional observations from a re-analysis of the deposited data

How the results depend on the processing

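Of 12 calls of a member in a comparison, 8 held under all 17 alternatives (RLE or upper quartile scaling, no filter, at least 1 CPM in 3 libraries, DESeq2, limma-trend, 6 libraries alone, replicate block, each library left out), and of 15 without a call 13 stayed so; the exceptions (OCLN, F11R, CGN, TJP1, CLDN4) are described above. No member's called fold change reversed. All alternatives reuse the libraries by which the members were chosen, so calls that held are no further evidence for them. The comparison of ERβ1 + CLI with ERβ1 cells was the one whose counts moved by over 1.5 times: its 251 called genes became 642 with DESeq2, 158 with 6 libraries alone and 136 with the replicate block, and 114 to 211 with a library left out. Members called there, 1 at first, were 0 with the replicate block and 0 to 1 with a library left out. Of the other tight junction genes, 0 at first, 1 was called with DESeq2 and 0 to 1 with a library left out. The causes were not tested. In ERβ1 + CLI and ERβ1 cells, TJP3 rested on 251 and 197 counts over 3 libraries and CGN on 711 and 420, which limits both.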
